A study of Mus musculus with 6 samples.

Results

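The 9 genes described here, Flna, Flnc, Actn1, Actn4, Vcl, Zyx, Tln1, Tln2 and Vasp, encode actin filament cross-linkers and the proteins that tie actin filaments to focal adhesions. They were read in total RNA from male mouse embryonic stem cells, in which SRRM2, a scaffold protein of nuclear speckles that binds the spliceosome, was present from both alleles or from 1. WT cells were the parental E14tg2a.4 line (3 libraries). Srrm2+/- cells were line CG0630, a derivative of E14tg2a.4 in which a gene-trap cassette in the first exon truncates 1 Srrm2 allele (3 libraries). Both lines were kept on gelatine without feeder cells in medium with LIF, and were moved before collection to serum-free medium that also held LIF. Srrm2+/- is a single clone, and WT cells were frozen at later passages than Srrm2+/- cells, so genotype, clone and passage cannot be told apart. The replicates were separate frozen batches of each line.

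The 9 genes are 9 of 42450 genes in the table of estimated counts. They were named from their role in the cell and chosen by their measured difference between Srrm2+/- and WT in these same 6 libraries, so that difference is given below as a description, without a test. All 9 had enough counts to be tested, and all 9 reached the level of the filter in every WT library as well.

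Filamins and alpha-actinins each form dimers that hold actin filaments together, filamins in loose networks and alpha-actinins in bundles, and both also bind integrins or their partners. At a focal adhesion, talin binds the integrin tail and actin, vinculin strengthens that link, and zyxin and VASP sit on the actin side, where VASP aids filament growth. Several of these genes are known targets of the serum response factor SRF, which binds the CArG box, and of the TEAD and AP-1 factors.

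Stretches of promoter are shown first because the genes were read as a set and an element shared near the start could be visible there. They come from RefSeq on build GRCm38.p6, run 5′ to 3′ on the strand of the gene, and carry 1 motif each in capitals. The windows searched covered 250 bases before to 50 bases after a RefSeq start site, and 8 of the 9 genes had one. The CArG box was searched as CCWWWWWWGG, with A or T at each W and no mismatch allowed. Vinculin was the only one of these 8 with such an exact box, which began 227 bases before the start. The 250 bases before the start of Vcl (chr14:20929148-20929397, plus strand), with the CArG box in capitals, were:
Vcl: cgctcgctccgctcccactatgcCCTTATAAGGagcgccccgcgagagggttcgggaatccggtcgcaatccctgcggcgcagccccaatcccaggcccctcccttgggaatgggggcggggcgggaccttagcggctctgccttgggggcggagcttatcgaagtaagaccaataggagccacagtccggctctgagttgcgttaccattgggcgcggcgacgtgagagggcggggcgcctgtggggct
Of all 32851 windows, 1.63% held a CArG box. Among 9 paralogs of these genes, 7 had a window. Of these, Trip6, of the zyxin family, held a CArG box from base 2 on, counting the start site as the first base (chr5:137314221-137314250, minus strand):
Trip6: gtggtcgtctCCAAAATTGGggaggaaggg
The AP-1 motif, searched on both strands as TGANTCA with any base at N, lay in the windows of Actn4 and Zyx, against 7.81% of all windows. The base at N was A in Actn4 and G in Zyx. Of the 7 paralogs with a window, 0 held this motif. The bases before the start of Actn4 (chr7:28962333-28962582, minus strand) and the site of Zyx (chr6:42349697-42349723, plus strand) are shown with the motif in capitals:
Actn4: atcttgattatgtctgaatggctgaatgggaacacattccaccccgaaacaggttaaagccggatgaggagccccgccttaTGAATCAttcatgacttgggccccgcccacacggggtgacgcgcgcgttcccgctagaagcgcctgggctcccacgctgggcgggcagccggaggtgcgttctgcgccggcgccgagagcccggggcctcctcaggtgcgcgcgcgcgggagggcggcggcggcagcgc
Zyx: gtgcggacagTGAGTCAgttctccagc
The TEAD motif, searched as GGAATG on both strands, lay in the windows of Flna, Flnc, Actn4 and Vcl, and in 14.7% of all windows. It also lay in the windows of 5 of the 7 paralogs that had one, namely Evl, Trip6, Lpp, Ajuba and Wtip. The site of Flna (chrX:74246665-74246690, minus strand), shown because Flna had the largest part of the summed level of the 9 genes, read the motif on the opposite strand:
Flna: cgttgtggggCATTCCaacgggaggg
The windows of Actn1, Tln1 and Vasp held none of the 3 motifs, and Tln2 had no window to search. None of the 3 motifs occurred in all 8 genes that had a window. A match, or the lack of one, is a description of the letters in these windows only, and sites elsewhere were not searched.

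Levels are given as counts per 1000000 counts of a library (CPM), on normalized library sizes, as mean ± SD of 3 libraries. The fold changes are log2 of Srrm2+/- over WT from the edgeR fit, with their standard error (SE). Summed over the 9 genes, the level was 1215 ± 28.2 CPM for WT, against 1911 ± 56.1 CPM for Srrm2+/- (SD, n = 3 each), a ratio of 1.57. Flna made up 57.1% of the difference of 696 CPM, Actn4 20.9% and Vcl 7.23%. Of the 9 genes, 7 lay past an adjusted p of 0.05 (edgeR quasi-likelihood test), all of them higher in Srrm2+/-, and Tln2 and Vasp did not. Of all 18905 genes tested, 25.3% were past that threshold, 13.6% higher and 11.7% lower. In the same 7 genes every Srrm2+/- library was above every WT library, which held for 21.4% of all genes tested. Because the genes were selected on this contrast, nothing is read from these shares.

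**Figure D1:**
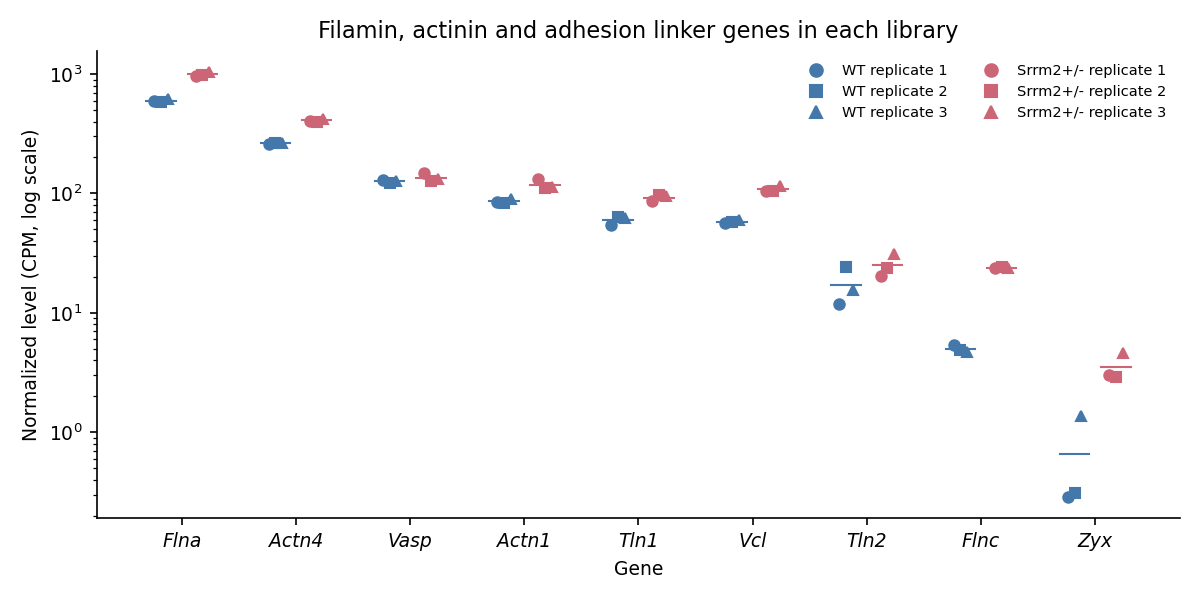
Level of each of the 9 genes in each library, in CPM on a log axis; blue marks are WT, red marks Srrm2+/-, the shape gives the replicate and the line the mean of 3 libraries. The groups are apart for 7 genes and overlap for Tln2 and Vasp, and the third WT library lies above the other two for Zyx.

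Filamin A (Flna, chrX:74223461-74249820, minus strand) is the filamin of most cell types and was the most abundant of the 9 genes per kb of the longest coding transcript. It was read at 596, 578 and 623 CPM in the WT libraries and at 960, 987 and 1041 CPM in the Srrm2+/- libraries. The groups did not overlap, and the lowest Srrm2+/- library was 1.54 times the highest WT library. The means were 599 ± 22.4 and 996 ± 41.1 CPM (SD, n = 3), with a log2 fold change of 0.73 (SE 0.05).

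Filamin C (Flnc, chr6:29433256-29461883, plus strand) is the filamin of striated muscle. It was read at 5.37, 4.90 and 4.70 CPM in WT and at 23.9, 24.1 and 23.6 CPM in Srrm2+/-. The spread within either group was small beside the distance between them. Its log2 fold change of 2.26 (SE 0.07) corresponded to a ratio of means of 4.79. Per kb of the longest coding transcript it stayed far below Flna, at 0.552 ± 0.0379 CPM per kb beside 70.8 ± 2.65 in WT and at 2.64 ± 0.0265 beside 118 ± 4.86 in Srrm2+/- (SD, n = 3). No 31-base word of the Flna or Flnc transcripts was found in another gene.

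Alpha-actinin 4 (Actn4, chr7:28893248-28962340, minus strand) and alpha-actinin 1 (Actn1, chr12:80167547-80260371, minus strand) are the non-muscle alpha-actinins. Actn4 was read at 261, 264 and 266 CPM in WT and at 407, 398 and 421 CPM in Srrm2+/-. Actn1 was read at 85.1, 82.7 and 89.6 CPM in WT and at 131, 110 and 113 CPM in Srrm2+/-. Neither gene overlapped between the groups, and the first Srrm2+/- library stood above the other two for Actn1. The log2 fold changes were 0.63 (SE 0.04) for Actn4 and 0.46 (SE 0.07) for Actn1. Actn4 shares 316 exon bases with Capn12 on the opposite strand, which was read at 0.471 ± 0.144 and 0.323 ± 0.176 CPM (SD, n = 3). Actn1 shares 363 exon bases with Gm47766, also on the opposite strand and not analysed here.

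The alpha-actinins of muscle, Actn3 and Actn2, were below Actn4 and Actn1 per length, at 5.57 and 0.397 CPM per kb in WT. Actn3 fell from 16.1 ± 0.570 to 12.3 ± 0.349 CPM (SD, n = 3), a log2 fold change of -0.38 (SE 0.06, adjusted p = 0.0016, edgeR). Actn2 was read at 1.20 ± 0.119 and 1.54 ± 0.377 CPM (SD, n = 3) and did not pass the test (adjusted p = 0.26, edgeR). The family therefore did not move one way, since Actn3 alone fell. Per length the family summed to 96.9 ± 1.13 and 142 ± 4.17 CPM per kb (SD, n = 3), in which the share of Actn4 was 70.1 ± 0.466% in WT and 74.3 ± 1.65% in Srrm2+/-. The share of Actn1 was 23.7 ± 0.717% and 22.3 ± 1.68% (SD, n = 3), and the libraries of the groups overlapped in that share.

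Talin 1 (Tln1, chr4:43531519-43562691, minus strand) links integrin tails to actin in most cells. It was read at 54.7, 63.2 and 62.1 CPM in WT and at 86.1, 96.4 and 94.7 CPM in Srrm2+/-, with no overlap and a log2 fold change of 0.62 (SE 0.07). It shares 360 exon bases with Creb3 on the opposite strand, which rose by 0.37 on the log2 scale (SE 0.06, adjusted p = 0.0024, edgeR), and the part of shared reads was not tested. Talin 2 (Tln2, chr9:67217087-67559703, minus strand) was read at 11.7, 24.2 and 15.4 CPM in WT and at 20.5, 23.8 and 30.9 CPM in Srrm2+/-. The second WT library for Tln2 was above 2 of the 3 Srrm2+/- libraries, so the groups overlapped. Without that library they did not, the log2 fold change was 0.88, and Tln2 became the eighth of the 9 genes past the threshold. Its log2 fold change of 0.55 (SE 0.24) had a standard error larger than that of any of the 9 genes except Zyx. Tln1 made up 83.8 ± 4.20% of the talin level per length in WT and 84.3 ± 2.35% in Srrm2+/- (SD, n = 3), a difference smaller than the spread between libraries.

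Vinculin (Vcl, chr14:20929398-21033676, plus strand), which binds talin and actin and whose promoter held the CArG box above, was read at 57.1, 57.4 and 59.7 CPM in WT. In Srrm2+/- it was read at 104, 105 and 115 CPM. The groups were far apart, with the lowest Srrm2+/- library at 1.75 times the highest WT library. The log2 fold change was 0.90 (SE 0.05). Vcl shares 2090 exon bases with Ap3m1 on the opposite strand, and 25.3% of its 31-base words also occur there. Ap3m1, which encodes a subunit of an endosomal adaptor complex, was read at 114 ± 5.22 CPM in the parental line, against 117 ± 1.41 in the trapped line (SD, n = 3), and did not pass the test (log2 fold change 0.04, SE 0.04, adjusted p = 0.57, edgeR). How far reads were exchanged between the strands was not tested.

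Zyxin (Zyx, chr6:42349630-42360213, plus strand), the LIM-domain protein of adhesions and stress fibres, was the lowest of the 9 genes. The WT libraries held 16, 18 and 73 of its counts, and the Srrm2+/- libraries 210, 199 and 286, which were 0.288, 0.311 and 1.36 CPM against 3.03, 2.89 and 4.64 CPM. The groups did not overlap, although the third WT library was well above the other two. The log2 fold change was 2.43 (SE 0.51), and without the third WT library it was 3.54. On the log2 scale this was the largest shift of any of the 9 genes when 1 library was left out. Zyx shares 236 exon bases with Epha1, an ephrin receptor gene on the opposite strand, which rose from 2.91 ± 0.237 to 11.4 ± 1.22 CPM (SD, n = 3), a log2 fold change of 1.97 (SE 0.11, adjusted p = 6.0e-06, edgeR). The part of shared reads in either value was not tested.

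VASP (Vasp, chr7:19256929-19271817, minus strand) protects growing filament ends from capping. It was read at 129, 123 and 127 CPM in WT and at 148, 126 and 132 CPM in Srrm2+/-. The second Srrm2+/- library lay inside the WT range, and the log2 fold change was 0.10 (SE 0.06). Neither relative of the Ena/VASP family rose. Enah fell from 707 ± 24.0 to 623 ± 14.8 CPM (SD, n = 3), a log2 fold change of -0.18 (SE 0.04, adjusted p = 0.011, edgeR), and Evl was read at 12.2 ± 1.44 and 11.5 ± 1.14 CPM (SD, n = 3), with an adjusted p of 0.60 (edgeR). Per length this family summed to 126 ± 3.13 CPM per kb in WT and 122 ± 6.86 in Srrm2+/- (SD, n = 3), with overlapping libraries, and the share of Vasp was 45.4 ± 0.865% and 50.1 ± 1.30%. Both depended on dividing by length, since the longest Enah transcript has 11.229 kb and that of Vasp 2.215 kb. In CPM the family summed to 846 ± 25.1 in WT and 770 ± 26.9 in Srrm2+/- (SD, n = 3), with every Srrm2+/- library below every WT library, and Vasp made up 14.9 ± 0.482% and 17.5 ± 0.833% of it.

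In the zyxin family, all 5 paralogs of Zyx rose. Lpp, an adhesion LIM protein, rose from 14.8 ± 1.43 to 51.9 ± 2.48 CPM (SD, n = 3), a log2 fold change of 1.82 (SE 0.07, adjusted p = 1.1e-06, edgeR). Ajuba rose by 0.71 (SE 0.05, adjusted p = 2.1e-05), Trip6 by 0.67 (SE 0.05, adjusted p = 2.9e-05), Limd1 by 0.46 (SE 0.07, adjusted p = 0.0022) and Wtip by 0.19 (SE 0.05, adjusted p = 0.019) on the log2 scale (edgeR). With Zyx, which was chosen on this contrast, all 6 genes of the family were higher in each Srrm2+/- library than in any WT library. That held for 21.4% of all genes tested, and 13.6% of all genes tested rose past the threshold. Per length the family summed to 53.4 ± 0.784 and 81.3 ± 3.51 CPM per kb (SD, n = 3), of which Zyx made up 0.381 ± 0.353% in WT and 1.36 ± 0.357% in Srrm2+/-. Ajuba held 44.6 ± 0.555% and 48.1 ± 0.950% of the same sum and was the leading gene in both lines. In CPM it led as well, but its share was 49.8 ± 0.324% in WT and 47.9 ± 1.46% in Srrm2+/-, so the direction of its share turned with the scale.

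**Figure D2:**
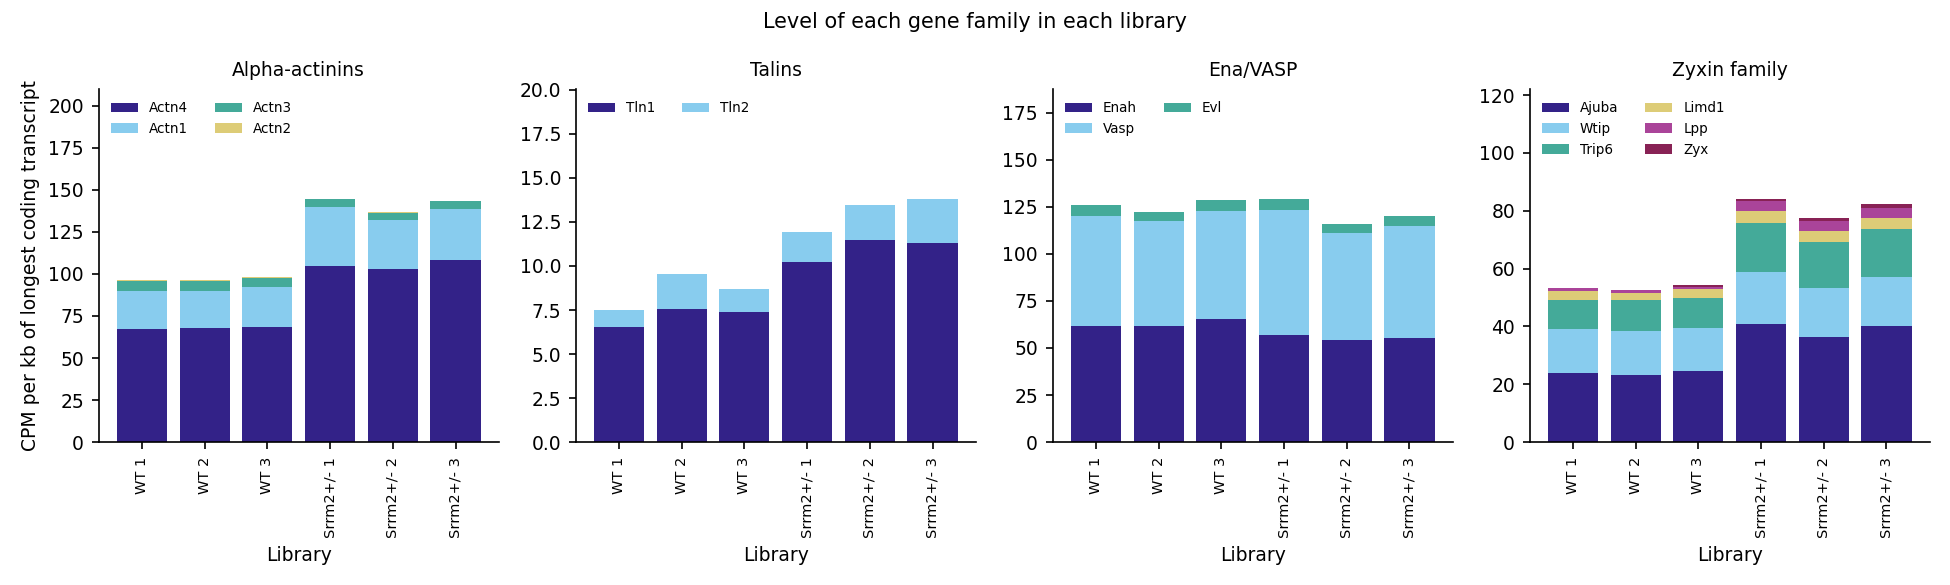
Level of each gene family in each library, as CPM per kb of the longest coding transcript, with 1 stacked bar per library and 1 colour per gene; each panel has its own scale from 0. The alpha-actinin, talin and zyxin families are higher in all Srrm2+/- libraries, the Ena/VASP family overlaps between the lines on this scale but not in CPM, and Actn4, Tln1 and Ajuba lead their families in both lines.

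Of 9 paralogs outside the 9 genes, 5 rose, 2 fell and 2 did not pass the test, with a median log2 fold change of 0.36. Among all genes tested, 13.6% rose and 11.7% fell. The median of the 9 genes was 0.63, and that of all genes tested was -0.0025. Among the 9 genes the fold changes ranged from 0.10 for Vasp to 2.43 for Zyx. Flnc and Zyx, which were the least abundant per length in WT, had the highest ratios of means, 4.79 and 5.38, and the other 7 genes had ratios between 1.07 and 1.87.

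**Figure D3:**
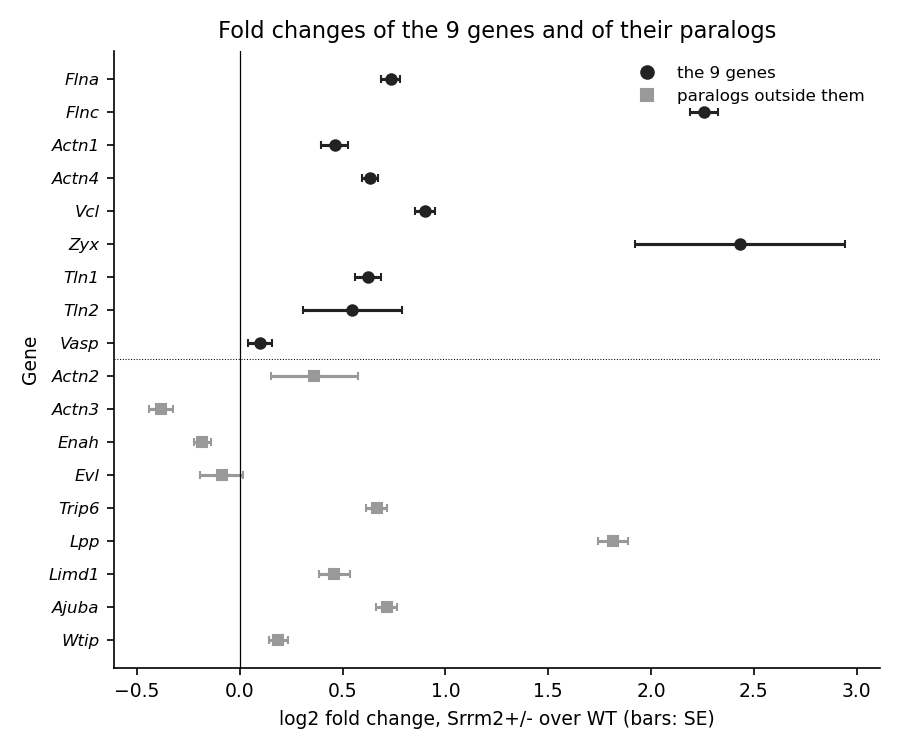
Log2 fold change of Srrm2+/- over WT with its SE for the 9 genes (black circles) and for 9 paralogs (grey squares), from 3 libraries a group. All 9 genes lie above 0, from Vasp at 0.10 to Zyx at 2.43, while Actn3, Enah and Evl lie below 0.

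Compared per length, the order of the 9 genes in WT was Flna at 70.8 ± 2.65 CPM per kb, Actn4 at 67.9 ± 0.598, Vasp at 57.0 ± 1.30, Actn1 at 23.0 ± 0.940, Vcl at 11.0 ± 0.272, Tln1 at 7.15 ± 0.551, Tln2 at 1.41 ± 0.526, Flnc at 0.552 ± 0.0379 and Zyx at 0.205 ± 0.193 (SD, n = 3). Flna and Actn4 overlapped between libraries in WT, and no other neighbours did. In Srrm2+/- the order was the same except that Flnc, at 2.64 ± 0.0265 CPM per kb, lay above Tln2, at 2.07 ± 0.438, and no neighbours overlapped. Flna reached 118 ± 4.86 CPM per kb and Actn4 105 ± 2.89 (SD, n = 3). Vasp, at 61.0 ± 5.05 CPM per kb, was thus further below both in Srrm2+/- than in WT. The order depended on the length used. With the mean length of the coding transcripts, Actn4 at 133 CPM per kb stood above Flna at 104 in WT, and Tln1 at 23.0 above Vcl at 20.3.

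Replicates of one line differed little for most of these genes. Within WT, the coefficient of variation was 0.880% for Actn4, 2.47% for Vcl, 3.74% for Flna and 4.09% for Actn1, against 37.3% for Tln2 and 93.8% for Zyx. Within Srrm2+/- it was between 1.00% for Flnc and 27.6% for Zyx. The third library of each line was the highest of its group for 5 of the 9 genes.

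The other genes of adhesions and cross-linked actin, taken from lists of their roles that were drawn up with earlier results known, moved in both directions. Of 124 listed genes in 6 lists, the paralogs included, 112 were tested, of which 43 rose (38.4%) and 13 fell (11.6%). Of all genes tested, 13.6% rose and 11.7% fell, so the share of listed genes that fell was close to that of all genes. The same shares stand beside the counts of each list below. Of the 27 scaffold genes tested, 10 rose, 4 fell and 13 did not pass, with a median log2 fold change of 0.18. Parva, which joins integrin-linked kinase to actin, rose from 2.05 ± 0.323 to 7.86 ± 0.427 CPM (SD, n = 3), a log2 fold change of 1.94 (SE 0.13, adjusted p = 1.8e-05, edgeR). Its partner Ilk rose by 0.90 (SE 0.05, adjusted p = 4.3e-06) and the kindlin gene Fermt1 by 1.48 (SE 0.17, adjusted p = 3.0e-04) on the log2 scale. Kank2, whose product binds talin at the rim of adhesions, had a log2 fold change of -0.60 (SE 0.07, adjusted p = 2.6e-04), Parvb of -0.47 (SE 0.08, adjusted p = 0.0040) and Kank3 of -0.24 (SE 0.05, adjusted p = 0.0064).

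Of 25 signalling genes of adhesions tested, 7 rose, 2 fell and 16 did not pass, with a median of 0.15. The docking protein gene Bcar1 rose by 1.63 (SE 0.22, adjusted p = 8.1e-04), the kinase gene Ptk2b by 0.76 (SE 0.10, adjusted p = 7.4e-04) and Efs by 0.73 (SE 0.14, adjusted p = 0.0050) on the log2 scale. Yes1, a kinase of the Src family, fell from 274 ± 12.3 to 174 ± 1.95 CPM (SD, n = 3), a log2 fold change of -0.65 (SE 0.04, adjusted p = 1.3e-05, edgeR), and Dock1 had one of -0.32 (SE 0.07, adjusted p = 0.0090). Of 24 other cross-linker and membrane skeleton genes tested, 13 rose, 2 fell and 9 did not pass, with a median of 0.18. Drebrin (Dbn1) rose by 1.28 (SE 0.06, adjusted p = 1.6e-06), the spectrin gene Sptb by 1.13 (SE 0.11, adjusted p = 1.3e-04) and espin (Espn) by 1.04 (SE 0.22, adjusted p = 0.0091), while Dmd at -0.23 (SE 0.05, adjusted p = 0.013) and the fascin gene Fscn1 at -0.21 (SE 0.06, adjusted p = 0.025) were lower. Neither of these 2 falls passed the test without the third WT library (adjusted p = 0.054 for Dmd and 0.074 for Fscn1, edgeR) or without the third Srrm2+/- library (0.055 and 0.074), and Fscn1 also did not without the second library of either line (0.073 and 0.076).

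Of 7 genes for filamin-binding partners, 4 were tested, 2 rose and 2 did not pass. Filip1l rose from 1.92 ± 0.251 to 3.95 ± 0.238 CPM (SD, n = 3), a log2 fold change of 1.04 (SE 0.14, adjusted p = 8.5e-04, edgeR), and the other that rose, named after its value was seen, was the refilin gene Rflnb at 0.149 against 0.593 CPM. Most of the summed level of this list came from Fblim1, also named after its value was seen. It was read at 81.2 ± 4.43 CPM in WT and 72.3 ± 9.28 in Srrm2+/- (SD, n = 3) and did not pass (adjusted p = 0.19, edgeR). The list summed to 79.9 to 88.2 CPM in WT and 70.4 to 87.6 CPM in Srrm2+/-, so the groups overlapped. Of 23 integrin subunits tested, 6 rose, 3 fell and 14 did not pass, with a median of 0.13. The beta subunit to which talin binds most widely, Itgb1, rose from 236 ± 2.90 to 348 ± 7.79 CPM (SD, n = 3), a log2 fold change of 0.56 (SE 0.04, adjusted p = 1.4e-05, edgeR). Itga8 rose by 2.77 (SE 0.16, adjusted p = 7.1e-06) and Itga3 by 2.67 (SE 0.07, adjusted p = 1.3e-07), while Itgb7 at -0.61 (SE 0.08, adjusted p = 5.3e-04), Itga9 at -0.55 (SE 0.08, adjusted p = 8.3e-04) and Itga4 at -0.41 (SE 0.10, adjusted p = 0.014) were lower. Itga4 did not pass the test without the third Srrm2+/- library (adjusted p = 0.056, edgeR).

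**Figure D4:**
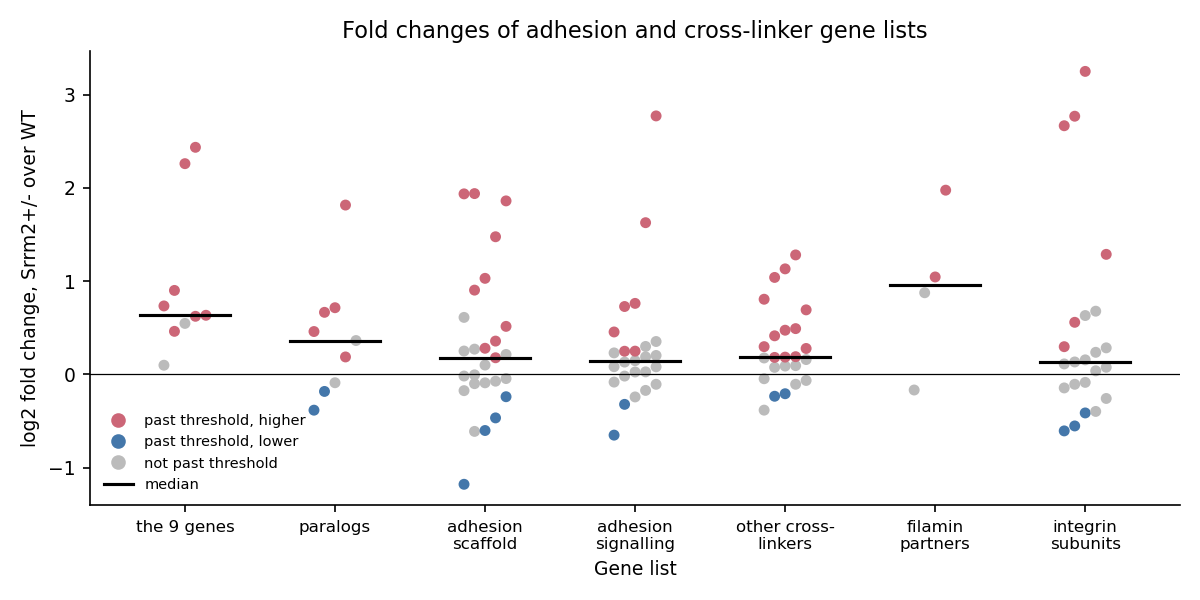
Log2 fold change of Srrm2+/- over WT for each tested gene of 7 lists; red and blue mark genes past an adjusted p of 0.05 (edgeR), grey those not past it, and the black line is the median of the list. The 9 genes were chosen on this contrast; the medians of the other lists lie between 0.13 for the integrin subunits and 0.96 for the 4 filamin partners.

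The 2 genes outside these lists whose profile over the 6 libraries lay nearest to that of Flna were Acsl4 and Optn, with root mean square differences of 0.0268 and 0.0390 on the log2 scale, among 11922 genes compared. Those nearest to Vcl were Rassf1 at 0.0331 and Ssbp3 at 0.0392. Since the libraries form 2 groups, this likeness is mainly a like difference between the lines: the log2 fold changes were 0.74 for Acsl4 and 0.77 for Optn beside 0.73 for Flna, and 0.89 for Rassf1 and 0.87 for Ssbp3 beside 0.90 for Vcl.

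The libraries held between 54151433 and 69933421 estimated counts, with fewer in each WT library than in any Srrm2+/- library. Srrm2 itself was read at 91.2, 98.3 and 97.7 CPM in WT and at 62.3, 56.2 and 59.6 CPM in Srrm2+/-, a log2 fold change of -0.69 (SE 0.05, adjusted p = 2.4e-05, edgeR). Stem cell markers were present in all libraries, and 4 of the 5 listed fell in Srrm2+/-. Of all genes tested, 11.7% fell and 13.6% rose, and these shares also stand beside the marker counts that follow. Among the tested markers of other cell types, some rose and the others did not pass the test. Thy1, Pdgfra and Sox7 had log2 fold changes of -0.70, -0.39 and -0.77 without passing it (adjusted p = 0.094, 0.55 and 0.089, edgeR), and that of Gata4 was -0.0038. Of 12 mesenchymal markers 10 were tested and 7 rose, and their sum was 5.57 to 6.05 CPM in WT and 12.0 to 15.6 CPM in Srrm2+/-, with Dcn at 0 counts in WT and Lum at 3 or fewer counts in any library. Of 8 smooth muscle markers 7 were tested and 6 rose, and their sum was 25.4 to 30.1 CPM in WT and 139 to 162 CPM in Srrm2+/-, there mostly from Acta2 and Tagln, with Myh11 at 13 or fewer counts in any library. Of 8 parietal endoderm markers 6 were tested and 3 rose, and their sum was 60.2 to 66.6 CPM in WT and 97.9 to 112 CPM in Srrm2+/-, mostly from Lamb1, with Sox17 and Foxa2 at 9 or fewer counts in any library. The part of other cells in the levels of the 9 genes was not tested, and in bulk RNA more cells of a type and more RNA per cell cannot be told apart.

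Under other settings the 9 fold changes kept their sign. In 13 alternatives, of which 6 left out 1 library, all 117 values were positive. The fold change of Flna lay between 0.70 and 0.76, that of Actn4 between 0.61 and 0.65, that of Vcl between 0.85 and 0.93 and that of Flnc between 2.22 and 2.32. That of Vasp lay between 0.03 and 0.15, the lowest without the first Srrm2+/- library, that of Tln2 between 0.34 and 0.88 and that of Zyx between 2.08 and 3.54.

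**Figure D5:**
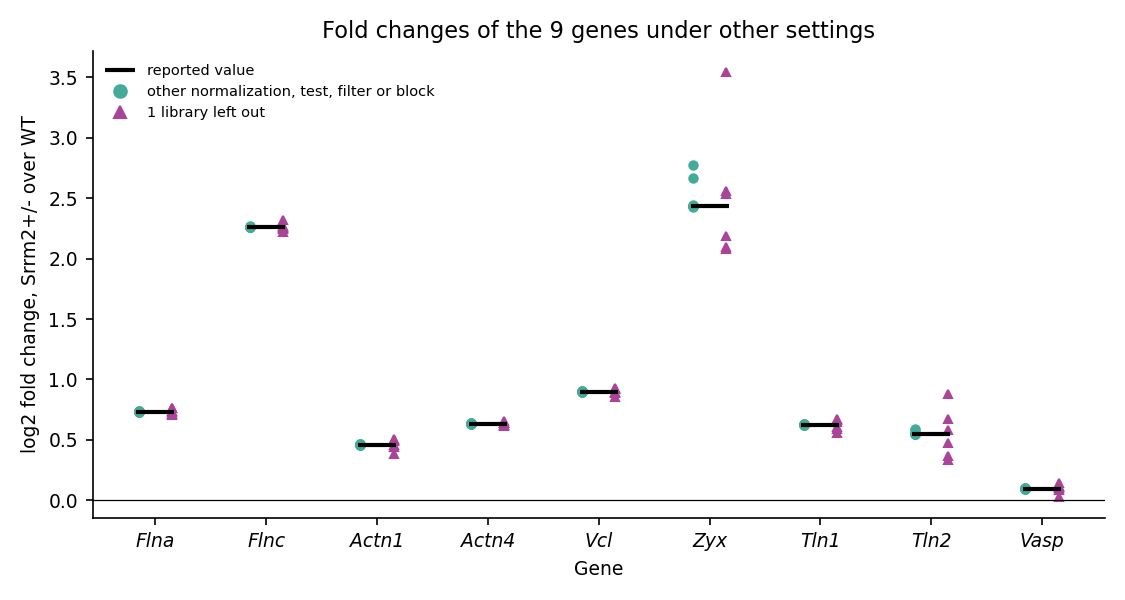
Log2 fold change of each of the 9 genes as reported (black bar), under another normalization, test, filter or a replicate block (green circles) and with 1 library left out (purple triangles). The values stay close to the reported one for 7 genes and spread most for Tln2 and Zyx, whose highest value, 3.54, is without the third WT library.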

How the data were processed

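The authors pseudo-aligned paired-end reads of stranded total RNA libraries with Kallisto 0.46.1 to the GENCODE M24 mouse transcriptome (mm10) and deposited the estimated counts of each gene without normalization. How strand was set in that step is not given in the sources used here. Reads that match several transcripts are split between them by Kallisto, and overlapping genes can thus exchange counts. The time in serum-free medium is given in several ways and was not used.

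Counts were rounded to whole numbers. Groups and replicate numbers came from the sample titles. Genes past filterByExpr (minimum count 10, minimum total 15) were fitted with edgeR 4.0.16 under R 4.3.3 (TMM, glmQLFit, glmQLFTest, two-sided, genotype as the sole term, Benjamini-Hochberg over 18905 genes). The SE is the size of the log2 fold change divided by the square root of F. Symbols and positions came from GENCODE M21 (GRCm38, counted from 1), which matched 42156 identifiers. Levels per kb used the longest coding transcript. The scripts were tested on simulated data.

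The 9 genes, the lists and the tests were chosen with earlier results of these data known. The genes named outside the 9 were the paralogs (1 listed gene is not reported here), up to 3 rises and 3 falls past the threshold in each other list (mean log2 CPM 1 or more), and the nearest profiles to Flna and Vcl, where a profile is log2 CPM (prior count 2) less its WT mean. Stem cell, mesenchymal, smooth muscle and parietal endoderm markers were listed as well. Over all genes tested, libraries with the same number did not deviate from their groups together (correlation -0.03 for each number). For the 9 genes alone this correlation was not computed, and the third library of each line was the highest of its group for 5 of them. Alternatives were DESeq2 1.42.0, limma 3.58.1 voom, other scalings and filters, a replicate block and each library left out. Protein sequences were not used here.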

Additional observations from a re-analysis of the deposited data

How the results depend on the processing

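Counts past the threshold kept to within 1.5 times the reported ones under most alternatives. With a replicate block, 2281 genes rose and 1885 fell among all genes tested, and 7 of the 9 genes, 5 paralogs higher and 2 lower stayed past the threshold. The labels do not say whether libraries with the same number were handled together, and the block changed no direction. With 1 library left out, between 1956 and 2257 genes rose and between 1559 and 1865 fell, and between 7 and 8 of the 9 genes were past the threshold, the eighth being Tln2 without the second WT library. The log2 fold change of Zyx then ranged from 2.08 to 3.54. Over the same omissions, lower paralogs ranged from 1 to 2, lower cross-linkers from 0 to 3 (0 without the third library of either line, where Dmd and Fscn1 lost their calls) and lower filamin partners from 0 to 1. With a filter of at least 1 CPM, 1 filamin partner rose, since Rflnb was then not tested. Of 30 named calls outside the 9 genes, 5 were lost under some alternative: besides Dmd, Fscn1 and Itga4 (without the third Srrm2+/- library), Enah lost its call without the second Srrm2+/- library (adjusted p = 0.051, edgeR), and Wtip lost its call without the third WT library (0.061) and without the first Srrm2+/- library (0.056). With the mean length of coding transcripts, 5 of the 9 genes kept their place in the WT order. On CPM not divided by length, Actn4 made up 71.9% of alpha-actinins in WT. After the data were seen the same was done for other families: Tln1 made up 78.2% of talins in WT and 78.8% in Srrm2+/-, Vasp 14.9% and 17.5% and Enah 83.6% and 81.0% of Ena/VASP, and Ajuba 49.8% and 47.9% of the zyxin family, which turned the direction of the Ajuba share. Depth limits Zyx most, with 16 to 286 counts a library.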
